A study of Mus musculus with 9 samples.

Results

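The 40 genes described here are Brca1 and its partners in homologous recombination, together with genes that sense, signal and repair DNA breaks by other routes. They were taken by symbol from a list written for this re-analysis, and all 40 were found among the 23951 gene rows of the deposited table. RNA had been sequenced from mammary epithelial cells of female mice of a mixed genetic background, sorted for a yellow fluorescent protein (YFP) 1 month after the adenovirus Ad-K8-Cre had been given into the mammary ducts. There were 3 groups with 3 libraries each. WT mice carried only the reporter Rosa26-Stop-YFP (R26Y), p53-deficient mice were Trp53L/L;R26Y, and p53/BRCA1-deficient mice were Trp53L/L;Brca1L/L;R26Y, where L marks a floxed allele that Cre recombinase can cut. All 3 groups received the same virus, in which the keratin 8 promoter, active in luminal cells, drives Cre. YFP reports that Cre acted on the reporter, not that it acted on the floxed genes. Neither ages nor the source of the replicates (separate animals or pools) are in the labels, and the p-values below speak only of library-to-library spread, part or all of which could be technical. In the figures the groups carry the label names WT, p53 and p53Brca1.

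A DNA double-strand break can be copied back from a sister chromatid (homologous recombination) or its ends can be joined directly. In recombination the MRE11-RAD50-NBN complex senses the break, the kinase ATM marks the surrounding histone H2AX, and the ubiquitin ligases RNF8 and RNF168 recruit the factors that choose the route. BRCA1, paired with BARD1, promotes trimming of the ends and, through PALB2 and BRCA2, the later strand exchange. Recombination works mainly in the S and G2 phases of the cell cycle, and inherited BRCA1 mutations predispose to breast cancer.

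Values are FPKM (fragments per kilobase of transcript, scaled to the size of the library), which are levels per transcript length. The threshold for calling a gene present was 1 FPKM, and a gene was tested when it reached 1 FPKM in at least 3 of the 9 libraries. Of the 40 genes, 20 did so (50% of the list), against 9503 of 23951 gene rows (39.7%). Those 20 were Rbbp8, Uimc1, Brcc3, Rad52, Rpa1, Rpa2, Rpa3, Rad50, Nbn, H2afx, Rnf8, Rnf168, Trp53bp1, Fanca, Fancc, Fancl, Xrcc6, Xrcc1, Parp1 and Lig3. A further 8 reached 1 FPKM in only 1 or 2 libraries, and 12 stayed below it in all 9. The median over tested genes of the mean level was 5.14 FPKM for the 20 list genes and 6.58 FPKM for all 9503.

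**Figure D1:**
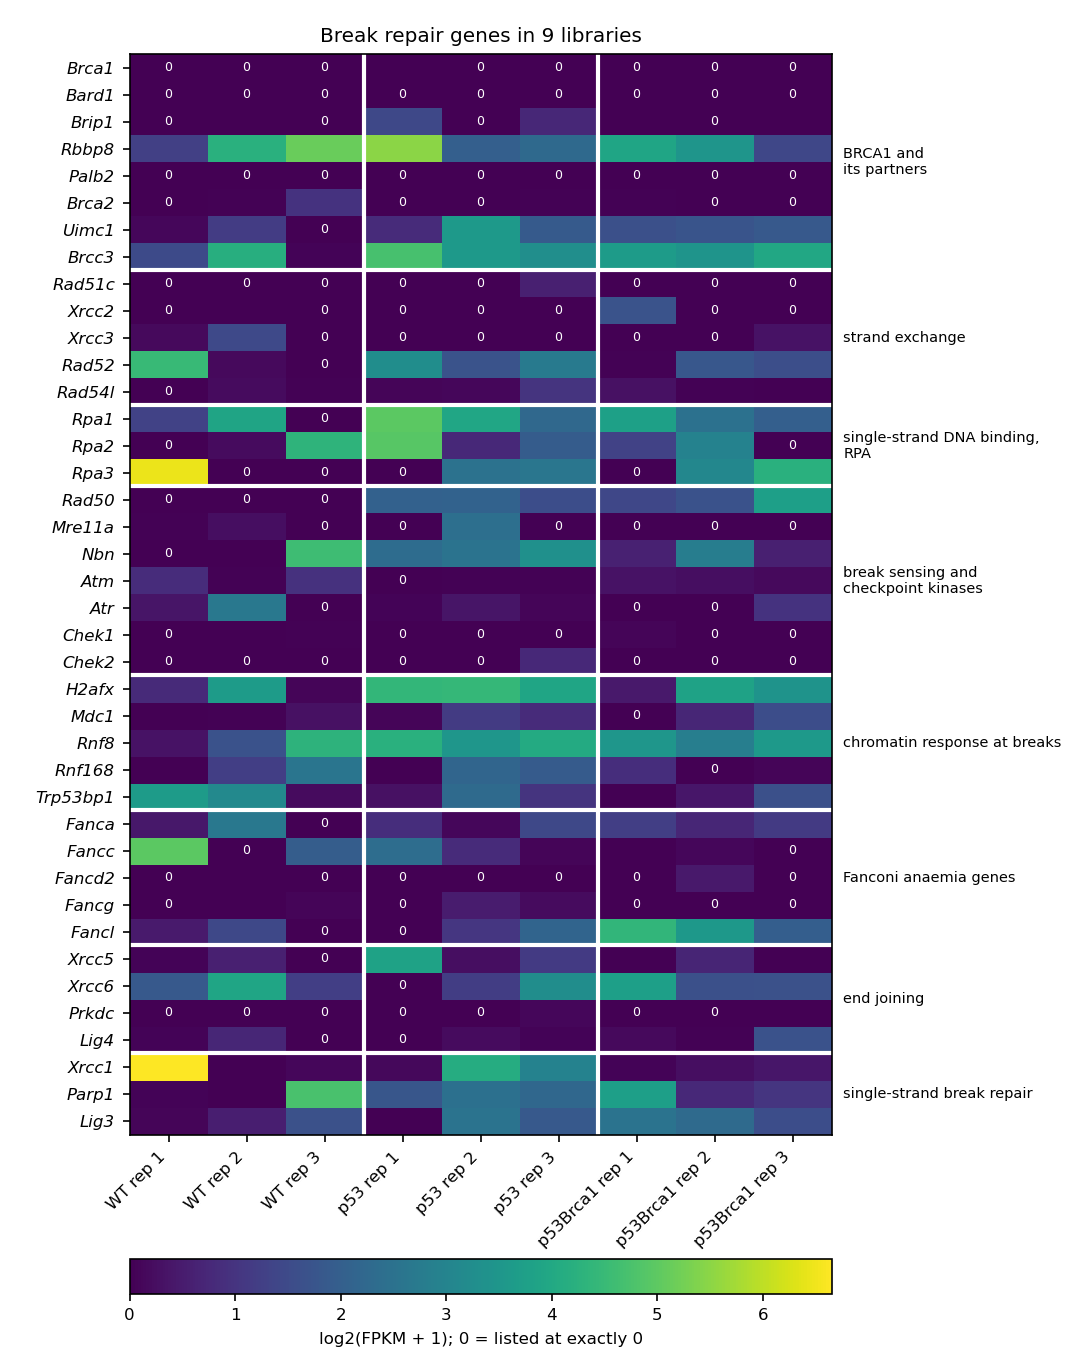
Level of each of the 40 genes (rows, grouped by role) in each of the 9 libraries (columns), as log2(FPKM + 1) in colour, with 0 printed where a gene was listed at exactly 0. Brca1, Bard1 and Palb2 are dark throughout, Rbbp8 is present in every library, and most other rows alternate between dark and bright within a genotype.

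The libraries as a whole set the frame for these values. The FPKM sums lay between 359976 and 433880 per library. The number of reads is not known. Ratios between the lowest values, searched only near equal depth, gave depths relative to 1 library from 0.788 (WT replicate 1) to 1.12. A wide difference in depth could not have been found in this way. Gene rows at 1 FPKM or more numbered 4839 to 7320 in WT, 6286 to 9767 in p53-deficient and 7332 to 8213 in p53/BRCA1-deficient. Correlations across genes between replicates of a genotype (0.599 to 0.843, 9 pairs) covered the same range as those between genotypes (0.590 to 0.828, 27 pairs). The luminal keratins Krt18 (1460.4 to 6009.2 FPKM) and Krt8 (1136.1 to 4385.0 FPKM) were abundant in all 9 libraries, as the labelled cell type would have them. Trp53, the other targeted gene, stood at 2.77, 25.5 and 1.35 FPKM in WT, at 55.7, 0.858 and 20.3 in p53-deficient and at 23.7, 26.5 and 1.88 in p53/BRCA1-deficient, so that its values did not separate the labels. A gene listed at exactly 0 may be a failed estimate, and such values are given library by library. In sorted bulk RNA, fewer cells of a type and less RNA per cell cannot be told apart.

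Brca1 itself was listed at 0 in 8 of 9 libraries and stood at 0.00559 FPKM in p53-deficient replicate 1. All 3 WT libraries, which carry no floxed Brca1 allele, were listed at 0. The RNA values therefore neither show nor check the deletion of Brca1 in the libraries labelled p53/BRCA1-deficient, and a recombined allele could in any case still give reads outside its deleted exons. Bard1, the obligate partner of Brca1, and Palb2, the bridge to Brca2, were listed at 0 in all 9 libraries. Brca2, which acts in strand exchange after PALB2, had its highest value in WT replicate 3, at 0.976 FPKM. Brip1, a helicase bound by BRCA1, stood at 1.73 FPKM in p53-deficient replicate 1 and below 1 elsewhere. None of these 5 genes reached the level required for testing. In a fit without that filter Brca1, Brca2 and Brip1 were compared and not called by limma (adjusted p from 0.554 to 1.0), and Bard1 and Palb2, at 0 throughout, gave no value.

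The other partners of Brca1 were present. Rbbp8 encodes CtIP, which starts the trimming of broken ends together with BRCA1, and it was the 1 gene of the 40 that reached 1 FPKM in every library. It stood at 1.40, 17.6 and 33.8 FPKM in WT, at 43.7, 3.03 and 3.87 in p53-deficient and at 14.0, 10.1 and 1.66 in p53/BRCA1-deficient, and its 3 groups overlapped. Uimc1 encodes RAP80, which brings BRCA1 to ubiquitin chains at breaks. Its values were 0.0869, 1.26 and 0 FPKM in WT, 0.766, 11.0 and 2.70 in p53-deficient, and 2.09, 2.34 and 2.65 in p53/BRCA1-deficient. All p53/BRCA1-deficient values of Uimc1 lay above all WT values, while the p53-deficient values overlapped both groups. Brcc3 encodes the deubiquitinase of the same complex, BRCA1-A. It stood at 1.83, 16.9 and 0.0397 FPKM in WT, at 25.3, 11.2 and 8.73 in p53-deficient and at 11.5, 9.95 and 14.9 in p53/BRCA1-deficient. WT replicate 2 lay within the range of the other genotypes, and the other WT libraries lay below it. Uimc1 and Brcc3 reached 1 FPKM together in 6 of 9 libraries, including all 3 p53/BRCA1-deficient libraries and 1 WT library.

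Of the 5 genes of strand exchange, Rad52, which can anneal single strands, was the 1 gene tested. It stood at 21.2, 0.115 and 0 FPKM in WT, at 8.63, 2.27 and 5.52 in p53-deficient and at 0.0253, 2.51 and 2.05 in p53/BRCA1-deficient. WT replicate 1 was the highest and the other WT libraries were among the lowest. Rad51c, Xrcc2 and Xrcc3, which assist strand exchange, had highest values of 0.502, 2.23 and 1.75 FPKM, each in a different library, and Xrcc2 was at 0.0114 FPKM or less in the other 8. Rad54l, a motor protein of strand exchange, had a highest value of 0.993 FPKM.

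Replication protein A coats single-stranded DNA and consists of Rpa1, Rpa2 and Rpa3. Rpa1 stood at 1.47, 13.8 and 0 FPKM in WT, at 30.6, 14.4 and 3.73 in p53-deficient and at 12.8, 4.59 and 3.03 in p53/BRCA1-deficient. For Rpa2 the values were 0, 0.152 and 19.1 FPKM in WT, 29.4, 0.707 and 2.82 in p53-deficient and 1.50, 6.75 and 0 in p53/BRCA1-deficient. Rpa3 was at 87.5, 0 and 0 FPKM in WT, at 0, 4.72 and 5.06 in p53-deficient and at 0, 7.52 and 17.8 in p53/BRCA1-deficient. The 3 subunits, which form 1 complex, were not high in the same libraries: all reached 1 FPKM together in 2 of 9 (p53-deficient replicate 3 and p53/BRCA1-deficient replicate 2).

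Among the genes that sense breaks, Rad50 had the clearest order by label. This ATPase of the MRE11-RAD50-NBN complex had a listed value of 0 in each of the 3 WT libraries, against 3.15, 3.28 and 1.95 FPKM in p53-deficient and 1.68, 2.19 and 12.5 in p53/BRCA1-deficient. Of 9503 tested genes, 29 (0.305%) were likewise listed at 0 in every WT library and at 1 FPKM or more in the other 6. That pattern was cut to the values of Rad50. The plainer order, all libraries of both deficient groups above all WT libraries, held for 555 (5.84%), and for 1 of the 20 list genes, Rad50. Nbn, the regulatory subunit, stood at 0, 0.0150 and 22.8 FPKM in WT, at 4.14, 4.78 and 9.14 in p53-deficient and at 0.534, 6.10 and 0.501 in p53/BRCA1-deficient, so its WT range enclosed the other groups. Mre11a, the nuclease, reached 4.34 FPKM in p53-deficient replicate 2 and was at 0.190 or less in the other 8 libraries. All 3 subunits were present together only in that library.

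The kinases of the checkpoint were low. Atm, the kinase that answers double-strand breaks, had a highest value of 0.913 FPKM in WT replicate 3. Atr answers single-stranded DNA, and it stood at 0.298, 5.34 and 0 FPKM in WT, at 0.0412, 0.298 and 0.0664 in p53-deficient and at 0, 0 and 0.965 in p53/BRCA1-deficient. WT replicate 2 was the 1 library in which Atr passed 1 FPKM. Their downstream kinases Chek1 and Chek2 had highest values of 0.0562 and 0.713 FPKM, and Chek2 was listed at 0 in the other 8 libraries.

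Of the 5 genes of the chromatin response 4 were tested. H2afx encodes histone H2AX, whose phosphorylated form marks breaks. Its values were 0.740, 11.6 and 0.0642 FPKM in WT, 20.2, 20.7 and 14.0 in p53-deficient and 0.374, 13.2 and 9.60 in p53/BRCA1-deficient. All p53-deficient libraries lay above all others, as they did for 243 of 9503 tested genes (2.56%). Rnf8, the first ubiquitin ligase at a break, stood at 0.260, 2.22 and 18.6 FPKM in WT, at 17.6, 10.3 and 15.7 in p53-deficient and at 10.3, 6.23 and 11.1 in p53/BRCA1-deficient. WT replicate 3 was the highest library for Rnf8, and the other WT libraries were the lowest. Rnf168, which extends the ubiquitin mark, stood at 0.0111, 1.34 and 5.05 FPKM in WT, at 0.0127, 3.49 and 2.79 in p53-deficient and at 0.834, 0 and 0.0733 in p53/BRCA1-deficient. None of the p53/BRCA1-deficient libraries reached 1 FPKM of Rnf168, but their range overlapped both other groups. Trp53bp1 encodes 53BP1, which opposes BRCA1 at broken ends and favours joining. It stood at 11.5, 7.71 and 0.140 FPKM in WT, at 0.221, 3.89 and 1.00 in p53-deficient and at 0.00387, 0.332 and 2.10 in p53/BRCA1-deficient. Mdc1, the adaptor that binds phosphorylated H2AX, had a highest value of 1.98 FPKM.

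The Fanconi anaemia proteins repair crosslinks between DNA strands and act upstream of recombination. Fancl, the ubiquitin ligase of the pathway, stood at 0.388, 1.74 and 0 FPKM in WT, at 0, 1.06 and 3.41 in p53-deficient and at 19.9, 10.7 and 2.97 in p53/BRCA1-deficient. Its p53/BRCA1-deficient libraries lay above all WT libraries, and replicate 3 lay within the p53-deficient range. Fancc, a subunit of the core complex, showed the opposite order, at 30.3, 0 and 2.91 FPKM in WT, 4.23, 0.773 and 0.0683 in p53-deficient and 0.0131, 0.0857 and 0 in p53/BRCA1-deficient. WT replicate 2 was listed at 0, so the groups overlapped, and WT replicate 1 supplied most of the WT mean. Fanca, another core subunit, stood at 0.350, 5.34 and 0 FPKM in WT, at 0.839, 0.0886 and 1.72 in p53-deficient and at 1.37, 0.633 and 1.20 in p53/BRCA1-deficient. Fancd2, the substrate that the pathway ubiquitinates, and Fancg had highest values of 0.366 and 0.415 FPKM.

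In end joining, the Ku proteins Xrcc5 (Ku80) and Xrcc6 (Ku70) bind DNA ends as a pair. Xrcc6 stood at 2.61, 13.9 and 1.36 FPKM in WT, at 0, 1.30 and 8.55 in p53-deficient and at 12.6, 2.07 and 2.15 in p53/BRCA1-deficient. Xrcc5 was at 0.0403, 0.511 and 0 FPKM in WT, at 13.2, 0.180 and 1.17 in p53-deficient and at 0.0153, 0.626 and 0.0148 in p53/BRCA1-deficient. The library highest for Xrcc5, p53-deficient replicate 1, was the 1 library listed at 0 for Xrcc6, and both genes reached 1 FPKM together in 1 of 9 libraries. Prkdc, the kinase that Ku recruits, and Lig4, the ligase of the route, had highest values of 0.0927 and 2.18 FPKM.

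Single-strand break repair was represented by 3 genes, all tested. Xrcc1 is the scaffold of this pathway. It stood at 99.5, 0.0176 and 0.0760 FPKM in WT, at 0.111, 16.3 and 6.74 in p53-deficient and at 0.0552, 0.189 and 0.320 in p53/BRCA1-deficient. The WT mean of Xrcc1 thus came from replicate 1, whose value was the highest of any of the 40 genes. Parp1, the poly(ADP-ribose) polymerase targeted by drugs in BRCA1-deficient tumours, stood at 0.0523, 0.00947 and 25.6 FPKM in WT, at 2.46, 4.53 and 3.63 in p53-deficient and at 12.6, 0.693 and 1.05 in p53/BRCA1-deficient. Lig3, the ligase that binds XRCC1, was at 0.0740, 0.470 and 2.11 FPKM in WT, at 0.00625, 4.78 and 2.62 in p53-deficient and at 4.78, 3.94 and 1.98 in p53/BRCA1-deficient. Xrcc1 and Lig3 reached 1 FPKM together in 2 of 9 libraries, p53-deficient replicates 2 and 3.

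The spread within a genotype was wide in WT. In WT, 12 of the 20 tested genes (60%) stood at 10 FPKM or more in 1 library and under 1 FPKM in another, against 19.9% of all 9503 tested genes. In p53-deficient and in p53/BRCA1-deficient this held for 3 of 20 (15%), against 11.9% and 11.6%. WT replicate 1 held the highest of the 9 values for 5 of the 20 genes (Rad52, Rpa3, Trp53bp1, Fancc and Xrcc1), or 25%, against 11.5% of all tested genes, and for Xrcc1 and Fancc that value was at least 5 times the next. This pattern, chosen after the values were seen, is a description of these libraries and was not tested. The number of the 40 genes at 1 FPKM or more was 9, 13 and 9 in WT, 13, 19 and 20 in p53-deficient and 13, 14 and 17 in p53/BRCA1-deficient. Gene rows at 1 FPKM or more ran from 4839 in WT replicate 1, with 9 of the genes, to 9767 in p53-deficient replicate 3, with 20. The order was not the same throughout, since p53/BRCA1-deficient replicate 3 had 17 of the genes with 7473 gene rows and replicate 2 had 14 with 8213. The part of that breadth in the count of repair genes was not tested.

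**Figure D2:**
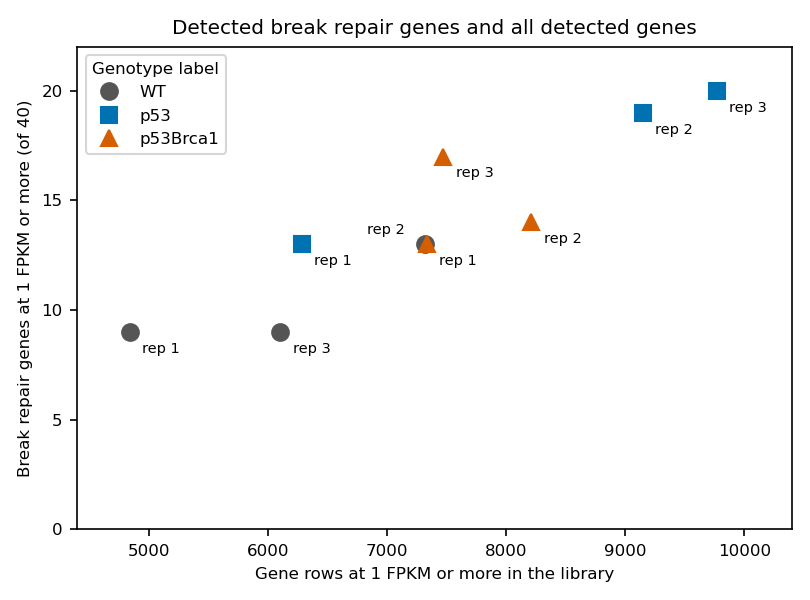
Number of the 40 break repair genes at 1 FPKM or more (vertical axis) against the number of all gene rows at 1 FPKM or more (horizontal axis), with 1 point per library and the shape and colour giving the genotype label. WT replicates 1 and 3 have 9 repair genes and the fewest gene rows, and p53-deficient replicates 2 and 3 have 19 and 20 and the most gene rows.

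Loss of p53 alone was examined by setting the p53-deficient libraries against WT. None of the 20 tested genes passed by limma (lowest adjusted p = 0.375), while 1 of all 9503 genes passed as higher (0.0105%) and 0 as lower (0%). At an unadjusted limma p under 0.05 there were 2 genes higher, H2afx and Rad50 (10% of the 20, against 10.8% of all tested genes), and 0 lower (against 0.989%). The same 2 were the genes whose groups did not overlap, against 14.1% of all tested genes higher in p53-deficient and 2.16% lower. These shares are near the background or below it. Differences are given on the log2(FPKM + 1) scale with their standard error, and only where they exceeded that error. That of H2afx was 2.73 ± 1.16 (95% interval 0.27 to 5.20, not adjusted for the number of genes) and that of Rad50 1.90 ± 0.87 (0.06 to 3.74), which depends on the added 1 because WT was listed at 0. Rpa1, Brcc3, Rnf8, Uimc1 and Nbn stood higher by 1.99 ± 1.15, 1.96 ± 1.08, 1.82 ± 1.06, 1.67 ± 0.91 and 1.21 ± 1.20, and Trp53bp1 and Fancc differed by -1.13 ± 1.02 and -1.21 ± 1.07. Limma adjusted p-values for these 7 lay between 0.487 and 0.721. The median over the 20 genes was 0.63, beside 0.58 over all tested genes. The distance between these medians depended on the setting. They were 1.70 and 0.92 with pseudocount 0.1 and 0.97 and 0.67 with library weights. With a covariate for the number of detected genes they were 0.57 and 0.01. Their order turned without WT replicate 2 (0.42 and 0.85) and with quantile normalization (-0.20 and -0.04). It also turned without the filter (0.20 and 0.29, 38 genes of the list) and without p53-deficient replicate 2 (0.43 and 0.45).

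Combined loss was examined against the same WT libraries. None of the 20 genes passed by limma (lowest adjusted p = 0.288), while 21 of 9503 genes passed as higher (0.221%) and 3 as lower (0.0316%). At an unadjusted limma p under 0.05, Fancl and Rad50 were higher (10%, against 10.1% of all tested genes) and Fancc lower (5%, against 2.09%). Groups did not overlap for Uimc1, Fancl and Rad50, all higher in p53/BRCA1-deficient (15%, against 12.7%), and for 0 genes lower (against 3.83%). The log2 difference of Fancl was 2.67 ± 0.97 (95% interval 0.61 to 4.72), that of Rad50 2.28 ± 0.87 (0.44 to 4.12) and that of Fancc -2.27 ± 1.07 (-4.52 to -0.01). Brcc3, Lig3, Uimc1 and Rnf8 differed by 1.79 ± 1.08, 1.37 ± 0.92, 1.31 ± 0.91 and 1.21 ± 1.06. Xrcc1, Trp53bp1 and Rnf168 differed by -2.02 ± 1.48, -1.64 ± 1.02 and -0.95 ± 0.84. For these 7 genes the limma adjusted p-values lay between 0.514 and 0.669. The median over the 20 genes was 0.13, beside 0.41 over all tested genes. Their order turned in 5 of the settings run: to 0.66 and 0.41 with only the 6 libraries compared (16 genes of the list), 1.19 and 0.69 with pseudocount 0.1, 0.49 and 0.05 with the covariate, 0.51 and 0.20 without WT replicate 1 (18 genes), and 0.49 and 0.43 without p53/BRCA1-deficient replicate 3.

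The addition of Brca1 loss was examined by setting p53/BRCA1-deficient against p53-deficient. None of the 20 genes and none of the 9503 passed by limma (0% in each direction), with adjusted p from 0.930 to 0.999 among the 20. At an unadjusted limma p under 0.05 Fancl was higher (5%, against 1.85%) and 0 genes were lower (against 2.88%). H2afx was the 1 gene whose groups did not overlap, lower in p53/BRCA1-deficient (5%, against 8.02%), and 0 genes were higher in this way (against 4.87%). The log2 difference was 2.25 ± 0.97 for Fancl (95% interval 0.19 to 4.30) and -1.69 ± 1.16 for H2afx (-4.15 to 0.77). Xrcc1, Rad52, Nbn and Rnf168 differed by -2.16 ± 1.48, -1.41 ± 1.16, -1.40 ± 1.20 and -1.04 ± 0.84. The median over the 20 genes was -0.43, beside -0.16 over all tested genes. Their order turned without p53-deficient replicate 1 (-0.34 and -0.37, 19 genes of the list), and they came close with library weights (-0.36 and -0.30). The values of Rad50 in p53-deficient and p53/BRCA1-deficient overlapped.

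**Figure D3:**
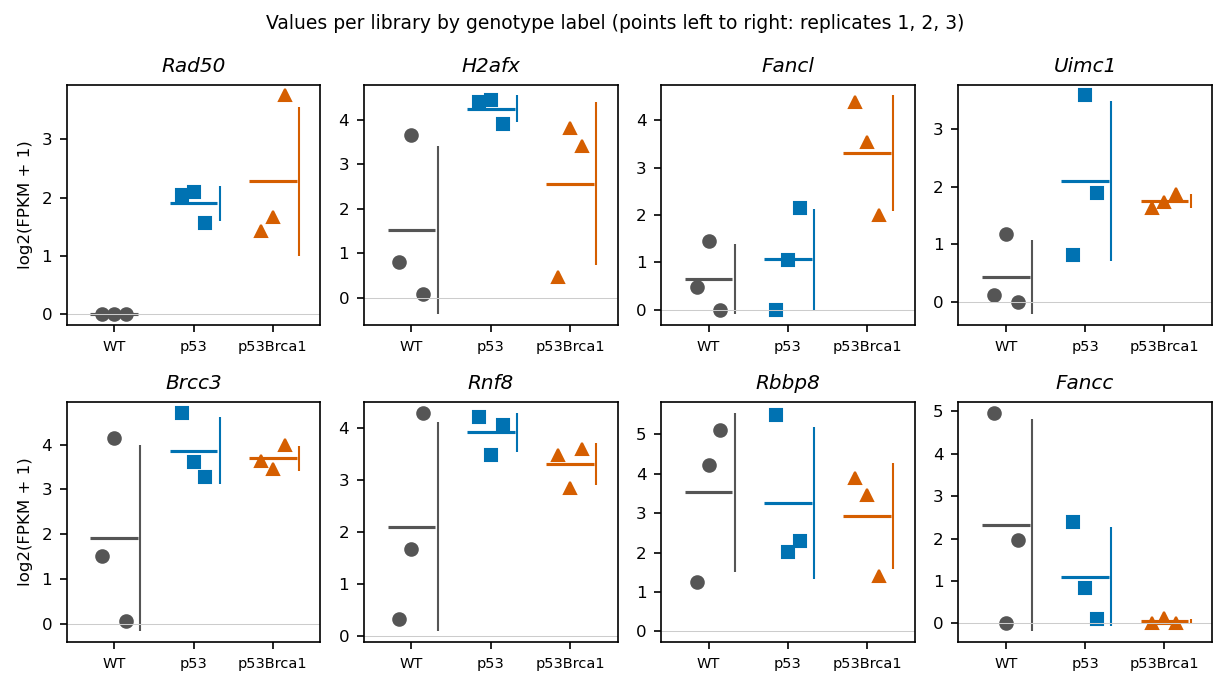
Level of 8 of the tested genes, chosen after their values were seen, as log2(FPKM + 1) in each library, with the genotype label on the horizontal axis, a horizontal line at the mean and a vertical line for 1 SD (n = 3). Rad50 is at 0 in all WT libraries and above 1 FPKM in the other 6, and H2afx is highest in all p53-deficient libraries. Every panel, those of Rad50 and H2afx included, shows at least 1 pair of groups that overlap.

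**Figure D4:**
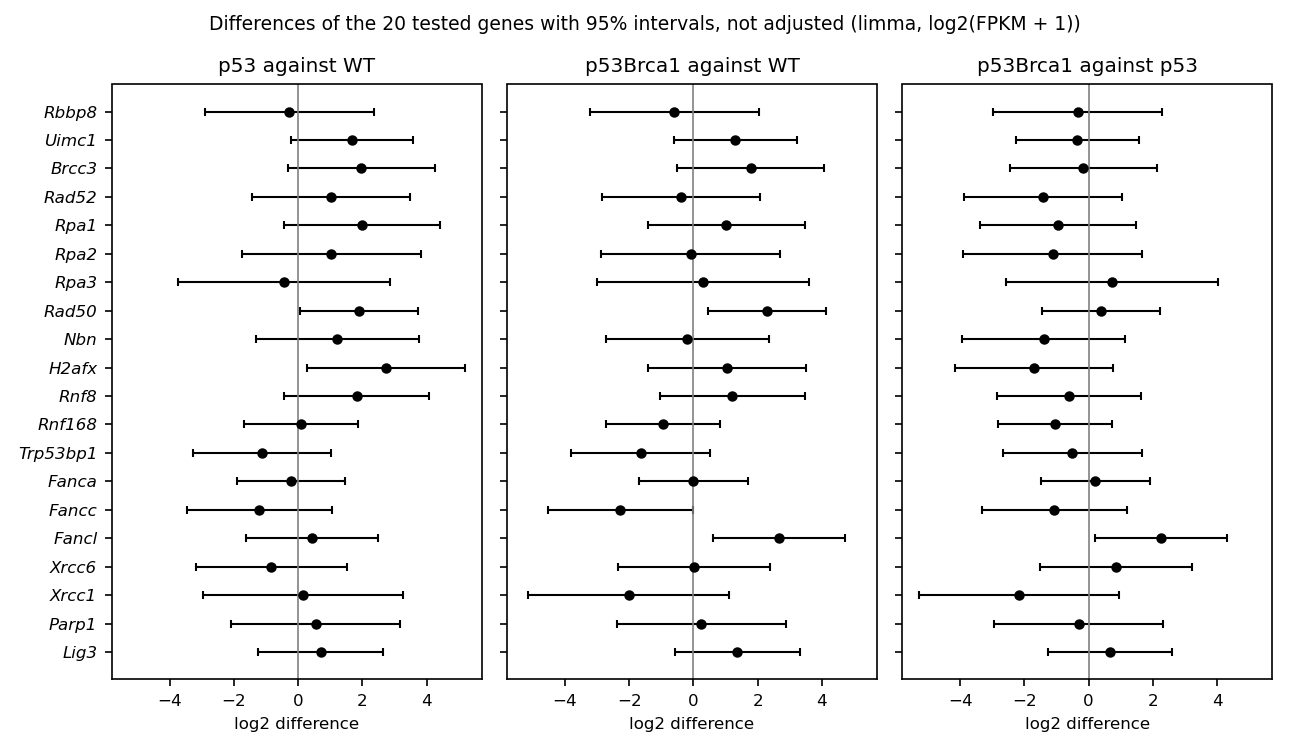
Log2 difference of each of the 20 tested genes (vertical axis) in the 3 comparisons, with the 95% interval from limma, not adjusted for the number of genes. Most intervals include 0, and the exceptions are H2afx and Rad50 (p53 against WT), Rad50, Fancl and Fancc (p53Brca1 against WT) and Fancl (p53Brca1 against p53).

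The width of these intervals limits what could be seen. The 95% interval reached 1.69 to 3.30 either side of the difference on the log2(FPKM + 1) scale, with a median of 2.33, a factor of 5.01. A smaller change in any of these genes would usually not have been told from 0 in 3 libraries against 3, even before adjustment. A call at an adjusted p under 0.05 over 9503 genes asked for more. The adipocyte marker Car3, at 4.49 ± 0.96 in p53 loss, was not called (limma adjusted p = 0.112). An adjusted p above 0.05 does not show that the genotypes were alike. Both comparisons with WT share the WT libraries, and both comparisons of the p53/BRCA1-deficient group share its libraries. The differences of Rad50 in the comparisons with WT are therefore not independent of each other, and neither are those of Fancl in the comparisons of the p53/BRCA1-deficient group.

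Other genes of the same routes were taken from 5 lists that hold none of the 40, and 66 of their 111 genes found in the table were tested. None of the 66 passed by limma in any comparison. At an unadjusted limma p under 0.05 there were 1, 7 and 2 genes higher in the comparisons of p53 loss, of combined loss and of added Brca1 loss, and 0 lower in each. Over all tested genes 10.8%, 10.1% and 1.85% were higher in this way, so that the 1 of 66 for p53 loss lay below the background and the 7 of 66 for combined loss near it. The 34 other homologous recombination genes had 20 tested, with median log2 differences of 0.32, 0.37 and -0.10 in the 3 comparisons. Their most abundant genes were Shfm1, whose product binds BRCA2 and is also a proteasome subunit, at 186.2 to 1046.2 FPKM, and Swi5, which acts in strand exchange, at 113.1 to 297.0 FPKM. These are levels far above those of Brca1 and Brca2 in the same libraries.

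Of the other Fanconi anaemia genes 12 were in the table and 6 were tested, with medians of 0.47, -0.09 and -0.45. Stra13 stood at 1.21, 19.3 and 0 FPKM in WT, at 17.4, 40.7 and 47.7 in p53-deficient and at 155.5, 85.3 and 28.9 in p53/BRCA1-deficient. All its p53/BRCA1-deficient libraries lay above all WT libraries, and its difference from WT was 4.38 ± 1.08 (limma adjusted p = 0.0902). Ercc1, a subunit of a nuclease that cuts beside crosslinks, ranged from 0.452 to 75.9 FPKM, highest in WT replicate 1. Among 27 other checkpoint genes 16 were tested (medians 0.70, 0.57 and -0.10), led by the phosphatase gene Ppp4c at 26.6 to 168.8 FPKM and by Mad2l2, which acts with 53BP1 against end trimming, at 0.509 to 154.6 FPKM. Of 10 other end joining genes found, 5 were tested (medians 0.39, 1.17 and 0.03), led by Tdp2, which cleans DNA ends, with a highest value of 21.9 FPKM. The 28 other genes of single-strand break and base excision repair had 19 tested (medians 0.58, 0.42 and 0.14), led by the polymerase subunit Pole3, from 0 in WT replicate 3 to 404.5 FPKM in WT replicate 1, and by the sliding clamp Pcna at 39.1 to 152.0 FPKM.

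Because many of these genes are used in dividing cells, 26 proliferation markers were set beside them. Their summed level was 1.29 to 31.3 FPKM in WT, 42.6 to 81.2 in p53-deficient and 24.6 to 210.3 in p53/BRCA1-deficient. None of the 14 tested passed by limma in any comparison, and their median log2 differences were 1.21, 1.72 and 0.36. At an unadjusted limma p under 0.05, 2, 6 and 1 of the 14 were higher in the comparisons of p53 loss, combined loss and added Brca1 loss (against 10.8%, 10.1% and 1.85% of all tested genes), and 0, 0 and 1 lower. Birc5, survivin, had 0 in each WT library, against 18.8, 8.45 and 3.02 FPKM in p53-deficient and 47.9, 17.6 and 0 in p53/BRCA1-deficient. Ube2c, a ubiquitin-conjugating enzyme of mitosis, stood at 51.4, 23.4 and 0 FPKM in p53/BRCA1-deficient and at 1.09 or less in the other 6 libraries. Fancl was highest in the same library as Birc5 and Ube2c, p53/BRCA1-deficient replicate 1, and the part of proliferation in the levels of the repair genes was not tested.

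Markers of other cell types were present and also varied. The summed level of 17 immune markers was 2750.4 to 8090.9 FPKM in WT, 2951.9 to 6424.3 in p53-deficient and 9017.0 to 14497.6 in p53/BRCA1-deficient, led by Cd74 and Lyz2. Of 15 tested immune markers, H2-Aa (MHC class II) was the 1 that passed by limma, higher in p53/BRCA1-deficient against WT (2.05 ± 0.32, adjusted p = 0.0105). The difference of Cd74, the MHC class II invariant chain, was 1.49 ± 0.31 (adjusted p = 0.0565). At an unadjusted limma p under 0.05, 9 of the 15 stood higher against WT, beside 10.1% of all tested genes. Against p53-deficient 11 did, beside 1.85%, and 0 were lower in either (beside 2.09% and 2.88%). The median log2 differences over the 15 were 1.39 and 1.71. Ptprc, named after its values were seen, went the other way within its standard error. Its means were 6.20 FPKM in WT, 6.58 in p53-deficient and 2.80 in p53/BRCA1-deficient. Cd3e was also lower against p53-deficient, but not against WT. The T and B cell markers Cd3e and Cd79a were listed at 0 in 1 and 5 libraries. The 14 luminal markers summed to 6403.1 to 10163.4 FPKM in WT, 3919.5 to 16505.6 in p53-deficient and 4993.6 to 7504.0 in p53/BRCA1-deficient, and 12 to 14 of them reached 1 FPKM in every library. Basal markers summed to 412.1 to 833.7, 442.4 to 2128.1 and 724.5 to 754.3 FPKM, led by Krt17 and Krt14. Endothelial markers (10 genes, led by Plvap and Cldn5) summed to 2.15 to 163.5, 35.4 to 623.5 and 59.0 to 202.5 FPKM, and fibroblast markers (9 genes, led by Dcn and Col3a1) to 71.9 to 200.3, 88.1 to 136.5 and 47.9 to 487.7 FPKM. Adipocyte markers (10 genes) summed to 151.4 to 1637.3, 664.3 to 5310.6 and 346.3 to 1493.2 FPKM, mostly Fabp4, while Lep and Plin1 were listed at 0 in all 9 libraries and Adipoq in 8. Car3, the next most abundant, stood at 9.49, 2.26 and 0 FPKM in WT, at 137.0, 49.3 and 54.7 in p53-deficient and at 20.9, 61.8 and 33.3 in p53/BRCA1-deficient. All libraries of both deficient groups lay above all WT libraries for Car3, with log2 differences from WT of 4.49 ± 0.96 and 3.48 ± 0.96 (limma adjusted p = 0.112 and 0.137). Lpl and Pparg, named after their values were seen, differed between p53/BRCA1-deficient and WT by 2.46 ± 1.04 and 2.93 ± 1.17 (limma adjusted p = 0.364 and 0.337). Cfd went the other way, at -2.43 ± 1.45 in combined loss and -2.0 ± 1.45 in p53 loss (limma adjusted p = 0.509 and 0.6). The differences of Fabp4 from WT were within their standard error in both. None of the luminal, basal, endothelial, fibroblast or adipocyte markers passed by limma in any comparison. The immune sum was the 1 of these 6 sums whose p53/BRCA1-deficient libraries all lay above both other groups, and the part of immune and adipocyte markers in the levels of Fancl, Uimc1 and Rad50 was not tested.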

How the data were processed

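The authors deposited 24043 rows with 1 column per library, as fragment levels scaled to transcript length and library size (FPKM). This unit is an inference from the values, which are never negative, rarely whole and differ in their sums, since the header gives none. Per the labels' protocols, cells were sorted for YFP, RNA came from Trizol and the library kit was SMARTer v4 for low input. Per the submitters' processing notes the reads were placed on mm9. Which aligner, quantifier and gene models were applied was not given in the sources used here. Because the reference at hand is of another build, no coordinates are printed, and reads shared between near-identical gene copies could not be resolved. The 92 spike-in rows, of which 1 was above 0, were left out.

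Tested were the 9503 genes that reached 1 FPKM in 3 libraries or more, with limma 3.58.1 in R 4.3.3 on log2(FPKM + 1), which understates changes of low genes. All 9 libraries were fitted with 1 coefficient per genotype (6 residual degrees of freedom), with trend and robust settings on. P-values were adjusted by Benjamini-Hochberg over the 9503 genes and called at 0.05. Relative depth is the commonest ratio of the low values of p53-deficient replicate 3 to those of the library. Only ratios within a fixed window around equal depth were searched, so a depth outside that window could not be found. The relative depth rested on 14 to 34 genes a library among 171 to 294 compared and is approximate. The fit was run on simulated data with less noise than these libraries and with large planted changes. That run checks the code and does not show what the fit can find in these data. The 40 genes and the lists were chosen with earlier results of these data known. Named are all 40 genes and, per further list, its called genes or else the 2 with the highest mean level, except that 1 such gene is not reported here. That log2 differences are printed only beyond their standard error was decided after the values were seen. Alternatives tried were a replicate block, a fit of the 6 libraries compared, no trend, quantile normalization, other filters and pseudocount, library weights, a covariate for how many genes a library detected, and each library left out.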

Additional observations from a re-analysis of the deposited data

How the results depend on the processing

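No gene of the 40 passed by limma in any of the 3 comparisons under any alternative run, and the lowest adjusted p was 0.167 (H2afx, without WT replicate 2), 0.129 (Rad50, pseudocount 0.1) and 0.210 (Xrcc1, library weights). Of the 25 log2 differences printed, 24 kept their sign in every alternative that gave a value. The exception was Fancc in p53-deficient against WT, at 1.10 with a covariate for how many genes a library detected. Without WT replicate 1 only 21 of the 25 gave a value. Fancc and Xrcc1, both highest in that library, then failed the filter on low values. No fit therefore gave their signs without that library. The other WT libraries held Xrcc1 at 0.0176 and 0.0760 FPKM, against 0.0552, 0.189 and 0.320 in p53/BRCA1-deficient. They held Fancc at 0 and 2.91 FPKM, against 4.23, 0.773 and 0.0683 in p53-deficient and 0.0131, 0.0857 and 0 in p53/BRCA1-deficient. On the log2(FPKM + 1) scale, the signs of Xrcc1 in combined loss and Fancc in p53 loss thus rest on WT replicate 1. That of Fancc in combined loss does not. The size of the 25 differences was less stable: 18 moved by more than 1.5 times when 1 library was left out. In p53-deficient against WT, Nbn (1.21) became 0.45 without WT replicate 1 and 2.73 without WT replicate 3, and Trp53bp1 (-1.13) became -0.46 and -2.19 without the same libraries. In p53/BRCA1-deficient against WT, Rnf8 (1.21) became 0.33 and 2.31 without them, and Rnf168 (-0.95) became -0.29 without WT replicate 3. H2afx between the deficient genotypes (-1.69) became -0.63 without p53/BRCA1-deficient replicate 1. The 7 that moved less were Rad50 (1.81 to 2.08 and 1.55 to 2.71) and Uimc1, Fancl and Lig3 against WT in the combined loss, H2afx in p53 loss, and Fancl between the deficient genotypes (1.71 to 2.91). Leaving out a WT library could not move Rad50, listed at 0 in every WT library. With pseudocount 0.1 its differences from WT became 4.82 in p53 loss and 5.22 in combined loss. Uimc1 in combined loss (1.31) became 3.06 with that pseudocount and 0.58 with the covariate. Of the other 35 differences, all within 1 standard error, 28 turned sign in at least 1 alternative. The 25 and the 35 were set apart by size in these same libraries. Their contrast in turned signs was largely fixed by that choice and is no measure of stability. Quantile normalization moved the median of all genes from 0.58, 0.41 and -0.16 to -0.04, -0.04 and 0, and that of the list genes from 0.63, 0.13 and -0.43 to -0.20, -0.17 and -0.27. The genes of the list at the presence threshold numbered 20, 11 at 5 FPKM, and 18 to 20 with each library left out.

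Counts over all genes moved more, and the cause was not tested. For p53-deficient against WT, the 1 call became 0 with only the 6 libraries compared, 22 without trend, 17 with pseudocount 0.1, 2 with library weights and 0 with the covariate. It ran from 0 to 8 with a library left out (2, 5 and 8 when WT replicates 1, 2 and 3 were dropped, 0 when p53-deficient replicate 1 or 3 was). For p53/BRCA1-deficient against WT, the 24 calls became 14 with the replicate block, 7 with only the 6 libraries, 50 without trend, 45 with quantile normalization, 56 with pseudocount 0.1 and 4 with the covariate. They ran from 3 to 73 with a library left out (73 when WT replicate 3 was dropped, 8 and 12 for p53-deficient replicates 2 and 3, and 6, 3 and 7 for p53/BRCA1-deficient replicates 1, 2 and 3). Between the deficient genotypes, the 0 calls became 1 with only the 6 libraries and 19 with library weights, and stayed at 0 with each library left out. Same-numbered libraries did not deviate together (correlations of deviations from -0.0830 to 0.0559, against -0.0638 to 0.0785 for other pairs), so the number was taken only to name a library. The block changed no call among the 40 genes, none of which was called in any setting. Depth in reads is unknown, which limits what a value of 0 can mean.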
